A study of Mus musculus with 46 samples.

Results

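The cytosolic ribosomal protein genes were followed in mouse lung through 3 days of high oxygen. A gene was included when a probe set (the group of short probes that measures 1 transcript on the array) carried 1 gene symbol and that symbol had the form of a cytosolic ribosomal protein (Rpl or Rps with a number, or Rplp0 to Rplp2), pseudogenes left out. The rule found 43 genes, measured by 69 of the 36701 probe sets, among 15965 genes with 1 symbol. Each gene was represented by its brightest probe set. There were 20 genes of the small subunit and 23 of the large subunit, with 29 read on array type A, 1 on type B and 13 on type C.

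Lung RNA came from wild type mice and Nrf2 mutant mice that had breathed 100% oxygen for 24, 48 or 72 h or, at 0 h, had not. Each of the 8 groups had 2 replicates, 1a and 1b, on each array type, with 1 exception: on type A only replicate 1b was present for the unexposed mutant and for wild type after 24 h. Strain, age, sex and the kind of Nrf2 mutation are not given in the labels. Nor do the labels tell if 1a and 1b come from different animals, and the p-values measure only the spread between these samples.

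The ribosome joins a small subunit, which reads the messenger RNA, to a large subunit, which forms the peptide bond. Each subunit is a core of ribosomal RNA carrying many proteins, most of them needed in equal numbers. The genes of these proteins are among the most strongly transcribed in the cell, and their messenger RNAs typically begin with a cytosine followed by a run of pyrimidines, called the terminal oligopyrimidine tract, through which mTOR signalling and the RNA-binding protein LARP1 control their translation and stability. Stalk proteins recruit the elongation factors, and several ribosomal proteins, when not built into a ribosome, bind Mdm2 and so act on p53. Nfe2l2 encodes Nrf2, which switches on antioxidant and detoxification genes.

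Most of the genes with a promoter sequence had a run of this kind near the annotated start, though not always at it, and such runs are given here for 4 genes that fell in wild type lung and for 4 bright genes that did not pass the test there. The sequences come from RefSeq (GRCm38.p6) and read 5′ to 3′ on the strand that has the sense of the messenger RNA. A C and the unbroken run of C and T after it are in capitals. The 8 bases on each side, or as many as the sequence window holds, are in lower case.
Rps7: tgtccccaCCTCTTTTCTTCCgccacccg
Rps18: cacttccgCTCTCTCTTCCacaggagg
Rpl10a: gcgctctgCCTTCTTTCCggtttccg
Rpl13a: cgacaagaCCTCCTCCTTTCCCaggcggct
Rplp2: gtcagcgtCTTCCTTTCgccgccgg
Rps24: tgagcggtCCTCTTTTCCT
Rps26: cgccggatCCTCTTTCgagtcttg
Rpl19: cccacaagCTCTTTCCTTTCgctgct

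These windows lie at chr12:28635911-28635939 (minus strand) for Rps7, chr17:33955649-33955675 (minus) for Rps18, chr17:28328574-28328599 (plus) for Rpl10a and chr7:45128722-45128751 (minus) for Rpl13a. For the genes that were not called they lie at chr7:141447639-141447663 (plus) for Rplp2, chr14:24490709-24490727 (plus) for Rps24, chr10:128626487-128626510 (minus) for Rps26 and chr11:98026948-98026973 (plus) for Rpl19. A promoter entry was found for 36 of the 43 genes. The motif searched was a C followed by at least 5 bases that are C or T, from 25 bases before to 50 bases after the annotated start, in any of a gene's annotated starts. It was present in 28 of the 36 genes (77.8%) and in 50.9% of all 27025 genes with an entry. On the opposite strand it was present in 38.9% of these genes and 54.8% of all genes. It was present in 4 of the 5 genes called lower in wild type that had an entry and in 11 of the 15 genes of mean intensity over 7000 that were not called. With the annotated start as base 1, the run begins at base 40 in Rps24 and base 33 in Rpl19, and in Rps18 it begins 2 bases before the start. A match is a description of these letters and not evidence of use. Rpl7, Rpl8, Rpl32, Rps14, Rps20, Rps29 and Rps4l had no entry.

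On the arrays the brightness of the 43 genes fell into 2 ranges. The mean intensity over all arrays of a type lay between 7235 and 82274 for 21 genes and between 45 and 1480 for the other 22, and the limit of 7000 used to name these ranges was chosen after the values were seen. Of the 21 bright genes, 18 were on type A and 3 (Rps20, Rplp2 and Rps26) on type C, with 11 in the small and 10 in the large subunit. Intensities of different probe sets are not levels per transcript, so no gene is ranked against another by amount. The highest means belonged to Rps20 at 82274, Rplp2 at 23479 and Rps24 at 21691, and the lowest to Rpl32 at 45.1, Rps15 at 57.7 and Rpl39 at 64.0, probe sets that read near the bottom of the scale. Tests were run on probe sets that exceeded a filter value (195 on A, 272 on B, 211 on C) on at least 2 arrays, and 38 of the 43 genes passed. Rpl35a, Rpl39l, Rpl39, Rps15 and Rpl32 did not pass. Rpl27, Rps6 and Rps15a passed on only 2 arrays.

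Rps24, Rps14 and Rplp0 varied least over all arrays, with an SD of the log2 value of 0.14, 0.15 and 0.15. Rpl3l, Rpl13a and Rpl38 varied most, with 0.98, 0.75 and 0.70. Without the mutant 0 h arrays Rps13, Rpl38 and Rpl37 varied most, with 0.63, 0.60 and 0.59, and Rpl3l and Rpl13a had 0.56 and 0.43. Rpl3l encodes the striated muscle form of the large subunit protein Rpl3. Rpl13a is a large subunit protein that can leave the ribosome after interferon-gamma to silence inflammatory messages.

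Several features of the whole array set touch these genes. On type A, Nfe2l2 read 2428 to 4488 in the 7 wild type samples and 303 to 448 in the 7 mutant samples, so no type A array went against its genotype label. The arrays of types B and C were not checked in this way. Markers of alveolar epithelium were bright in every group, with a summed intensity on type A from 52203 to 93536. The mutant 0 h arrays stood apart from the other arrays on every array type, with a correlation to the rest of 0.92 on type A, where the other arrays had 0.95 to 0.96. On type A the mutant 0 h array had a summed intensity of 55904 for squamous epithelium markers against at most 27793 elsewhere, and 31356 for skeletal muscle markers against at most 3151. Over the 3 array types its Gapdh 3′ to 5′ probe ratio, a measure of RNA breakdown, was 1.67 to 2.26 against 0.858 to 1.54 on the other 41 arrays. Comparisons with this group are therefore given after those in wild type, and with wild type at 0 h in its place.

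In wild type lung, 5 of the 38 tested ribosomal protein genes fell by 48 h and none rose, where 6.64% of all 26833 probe sets tested were called in either direction and 3.39% were called lower. They were Rpl7, Rpl10a and Rpl27 of the large subunit and Rps7 and Rps18 of the small subunit. Of the other 255 probe sets of type A over 7000, 15.3% were called at 48 h (22 higher, 17 lower), beside 22.2% of the 18 bright genes of type A (0 higher, 4 lower). At 72 h Rpl7 and Rpl13a were lower than at 0 h and none was higher, a share near the background of 7.83% called and 3.57% called lower. At 24 h none of the 38 passed in limma (6 at an unadjusted p under 0.05), where 1.72% were called and 0.76% called lower. In whole lung RNA, fewer cells of a type and less RNA per cell cannot be told apart.

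Rpl7, a large subunit protein, read 22140.5 and 21768.5 in the 2 wild type 0 h samples, 15841 in the 24 h sample, 12125 and 13613 at 48 h, and 13680 and 15552 at 72 h. Every sample in oxygen lay below both samples at 0 h. The log2 difference from 0 h was -0.77 ± 0.15 (SE) at 48 h, a 1.70-fold fall (limma, adjusted p = 0.0154), and -0.59 ± 0.15 at 72 h, a 1.5-fold fall (adjusted p = 0.0413). Rps7, a small subunit protein that binds Mdm2 when free, read 16182.5 and 18167 at 0 h, 12742 at 24 h, 9465 and 8686 at 48 h, and 10203 and 12689 at 72 h. Again no oxygen sample reached the 0 h samples, and the lowest values were those of 48 h. Its difference at 48 h was -0.91 ± 0.17, a 1.88-fold fall (adjusted p = 0.0129), and at 72 h it was -0.59 ± 0.17 (adjusted p = 0.0659), which did not pass.

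Rpl10a, a protein of the mobile L1 stalk beside the ribosome's exit site, read 10346 and 13018 at 0 h and 6217 and 6391 at 48 h, without overlap. The difference was -0.87 ± 0.22, a 1.83-fold fall (limma, adjusted p = 0.0391). Rps18, a protein of the small subunit's head, went from 16885 and 16193 at 0 h to 10531 and 11027 at 48 h, and its 72 h values of 12520 and 13631 lay between. Its 48 h difference was -0.61 ± 0.16, a 1.53-fold fall (adjusted p = 0.0429). Rpl13a read 1376 and 1633 at 0 h, 1008 at 24 h, 723 and 928 at 48 h, and 704 and 873 at 72 h. It was lower at 72 h by -0.87 ± 0.22, a 1.83-fold fall (adjusted p = 0.0366), and at 48 h the difference of -0.81 ± 0.22 did not pass (adjusted p = 0.0531).

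Rpl27 differs from the others in brightness. It read 221.5 and 213 at 0 h and 43.3 and 43.5 at 48 h, all of them under the filter value, and it was tested only because the 2 mutant 0 h arrays read 399 and 391. Its difference of -1.02 ± 0.27 (limma, adjusted p = 0.0429) rests on these dim values.

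**Figure D1:**
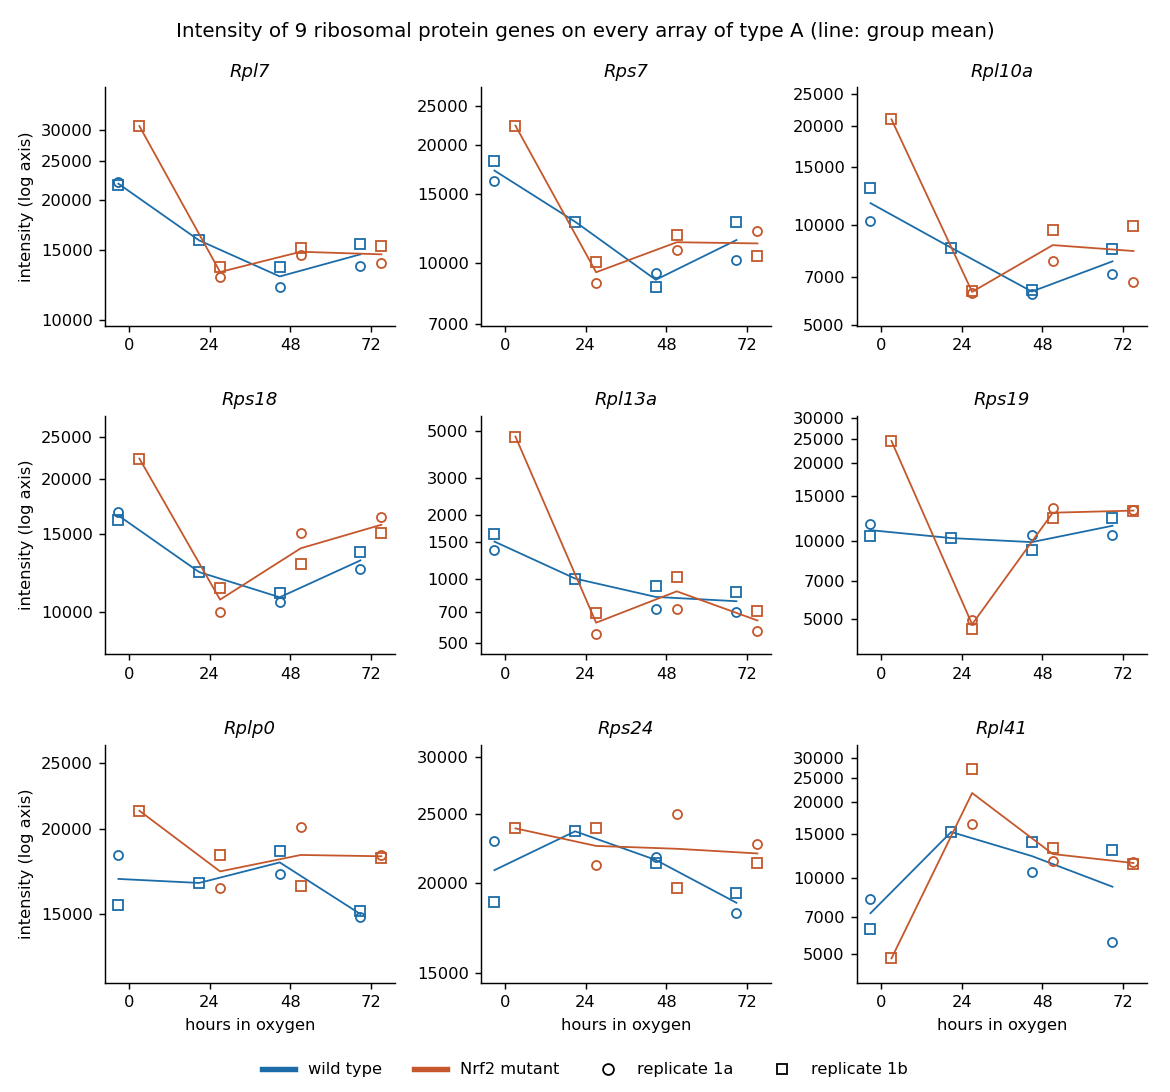
Intensity (log axis) of 9 ribosomal protein genes on each of the 14 arrays of type A against hours in oxygen, in blue for wild type and orange for the Nrf2 mutant. Circles are replicate 1a, squares replicate 1b, and lines join group means. Rpl7, Rps7, Rpl10a, Rps18 and Rpl13a were below their 0 h samples at every oxygen time in wild type, while Rplp0 and Rps24 overlapped their 0 h samples at 48 h. The single mutant 0 h array was the highest of the type A arrays for Rpl7, Rps7, Rpl10a, Rps18, Rpl13a, Rps19 and Rplp0, and the lowest for Rpl41.

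Most of the 43 genes lay below 0 in wild type. The median log2 difference over all 43 genes, with no filter, was -0.16 at 24 h, -0.16 at 48 h and -0.24 at 72 h, and 33, 32 and 31 of them lay below 0. The medians over all 36701 probe sets were -0.06, -0.02 and -0.06, with 58%, 52.9% and 56.7% below 0. Among the 21 bright genes, 17 lay below 0 at 24 h, 17 at 48 h and 16 at 72 h, with medians of -0.12, -0.25 and -0.25. The other 255 probe sets of type A over 7000 had medians of 0.14, 0.03 and -0.11. Both subunits had like medians among the bright genes at 48 h, -0.25 over 11 small subunit genes and -0.27 over 10 large subunit genes.

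The calls at 48 h and 72 h in wild type are fragile to the loss of 1 sample. Without wild type 0 h replicate 1a or 1b, or without 48 h replicate 1a or 1b, limma called 0 genes at 48 h, with 8 or 9 at an unadjusted p under 0.05. Leaving out a 0 h or a 72 h replicate in the same way left 0 genes at 72 h, with 4 to 8 at an unadjusted p under 0.05. The lone sample that remains is assumed to vary like the other groups. Fewer of all probe sets were called in these fits too, so the loss of calls is not particular to these genes. With a floor in place of the added value, or with no filter on dim probe sets, Rpl7 and Rps7 passed at 48 h and Rpl10a, Rps18 and Rpl27 did not.

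Genes that did not pass spanned small and moderate differences. Rps10, Rps3 and Rpl7a at 48 h had differences of -0.75 ± 0.20, -0.65 ± 0.19 and -0.62 ± 0.17, with adjusted p of 0.0573, 0.0709 and 0.0586 (limma), and for each of them no 48 h sample reached a 0 h sample. Rps3 is a small subunit protein at the entry of the messenger RNA channel. Rplp0, the base of the stalk that binds elongation factors, read 18332 and 15492 at 0 h and 17194 and 18568 at 48 h, so the groups overlapped. Its difference was 0.08 with a 95% interval from -0.28 to 0.45. Rps24, mutated in some patients with Diamond-Blackfan anaemia, had a difference of 0.05 (interval -0.33 to 0.44), and Rpl8, Rps28 and Rpl19 had -0.01, 0.02 and -0.05 with intervals reaching no further than -0.50 to 0.48. For the probe sets used here, the lower ends of these intervals do not reach the differences of the genes called lower at 48 h, which have an SE of their own. Other probe sets of these genes differed. Another Rps28 probe set, of mean intensity 16275, had -0.34 at 48 h. A further Rplp0 probe set on type C, of mean intensity 9194, had -0.79, and neither passed (limma). Dim further probe sets of these genes lay on both sides of 0. The intervals leave room for smaller changes in either direction, and none of these genes was shown to be unchanged. Rplp2, another stalk protein, had -0.45 ± 0.26 at 48 h (adjusted p = 0.387) and 0.06 ± 0.26 at 72 h.

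Rpl41, a very short peptide of the large subunit, had the largest difference above 0 among the bright genes at each time in wild type. It read 8235 and 6258 at 0 h, 15241 at 24 h, 10550 and 13905 at 48 h, and 5590 and 12875 at 72 h in wild type. The samples of 72 h stood far apart and enclosed both 0 h samples. Its difference of 0.75 ± 0.36 at 48 h did not pass (limma, adjusted p = 0.275). Rps6, the small subunit protein phosphorylated by S6 kinase, was read by a dim probe set of mean intensity 138. It had a difference of 0.70 ± 0.24 at 72 h (adjusted p = 0.0992), with 108 and 101 at 0 h against 246.6 and 224.5 at 72 h. These 72 h samples are the only 2 arrays on which Rps6 exceeded the filter value, so it was tested only through the group where it is high and its difference is given as a description. It was 1.14 with a floor in place of the added value.

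**Figure D2:**
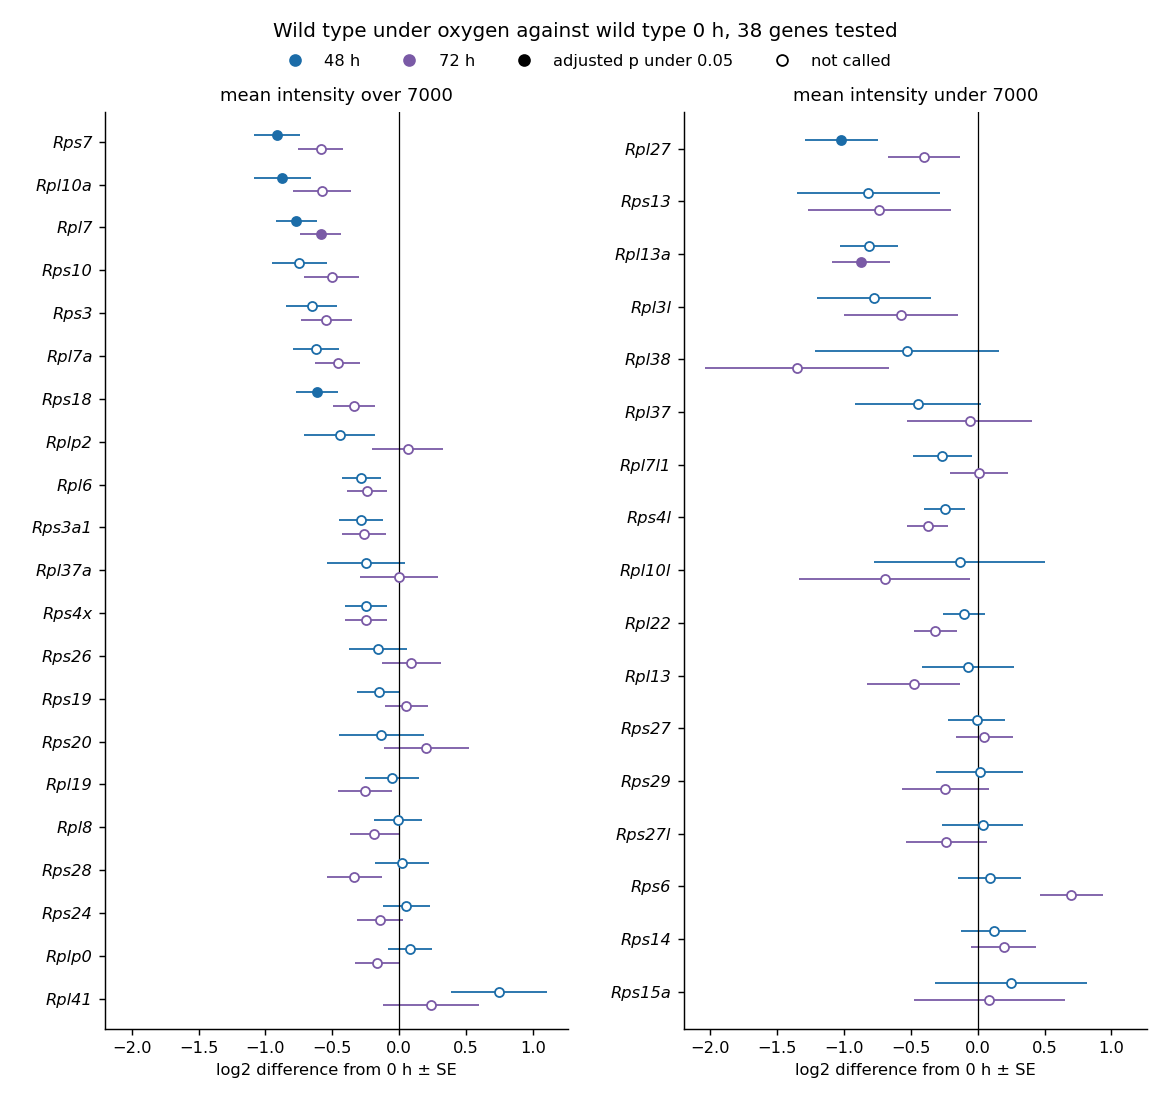
Log2 difference from wild type 0 h with its SE for the 38 tested genes at 48 h (blue) and 72 h (purple), split by mean intensity over or under 7000 and ordered by the 48 h value. Filled points passed an adjusted p under 0.05 (5 at 48 h and 2 at 72 h, all below 0). Most bright genes lie left of 0, and Rpl41 lies farthest right.

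Other probe sets gave partly the same picture. Rpl10a had a second probe set, of mean intensity 6587, with a difference of -1.30 at 48 h in wild type (limma, adjusted p = 0.00646), lower in the same direction. Rps3 had 2 further probe sets on type C, of mean intensity 2183 and 1516, whose differences at 48 h were -0.19 and -0.28 and neither of which passed. In the mutant at 24 h, against its 0 h arrays, these were 0.40 and 0.30 where the bright probe set on type A had -1.46, so the probe sets of this gene differed in sign. Rplp0 had a second probe set on type C, of mean intensity 9194, with -0.79 at 48 h and 0.56 at 72 h, neither called. Dim probe sets disagreed most: in the mutant at 24 h another probe set of Rps28, of mean intensity 171, was higher by 1.10 (limma, adjusted p = 0.0287) where the brightest had -0.24. Between genotypes at 0 h a second probe set of Rps4x, of mean intensity 123, was lower in the mutant by -1.35 (adjusted p = 0.0148) where the brightest had 0.48. Ribosomal protein genes have many near-identical pseudogene copies, and 52 further probe sets carried several symbols of which 1 was such a gene. Rplp1, Rpl3, Rpl5, Rpl11 and Rps27a had no probe set with 1 symbol and were not analysed here. Of 21 probe sets with several symbols over 7000 on type A, 18 lay below 0 at 48 h in wild type with a median of -0.21, and 3 were called lower. Of the 21 bright genes, 14 were read by probe sets with a plain name and 7 by probe sets whose suffix marks shared or less specific probes, Rpl7 among them.

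Markers of several cell types moved in the same wild type comparisons. Of all probe sets, 6.64% were called at 48 h (3.39% lower) and 7.83% at 72 h (3.57% lower). Of 12 listed T and NK cell markers, 9 were tested, and 5 were lower and 0 higher at 48 h and at 72 h, with a summed intensity on type A of 3187 to 4016 at 0 h and of 1079 to 1221 over 48 and 72 h (7 of the 12 genes are on type A). Over the 2 genes on type C the sums were 9313 to 12179 at 0 h, 6606 to 7715 at 48 h and 8036 to 9663 at 72 h. The 1 gene on type B read 907 to 969, 792 to 891 and 531 to 809 at these times. Of 10 B cell markers, 9 were tested and 8 were lower at both times, with sums of 21003 to 22019 at 0 h, 7926 to 8199 at 48 h and 8663 to 9121 at 72 h. Of 11 neutrophil markers, 10 were tested and 6 were higher at 48 h, with sums of 10814 to 11429 at 0 h and 21687 to 22384 at 48 h. Of 10 macrophage markers, 8 were tested and 3 were higher at 48 h and 2 at 72 h, with sums of 15997 to 16171 at 0 h and 23564 to 26756 over 48 and 72 h. Of 12 skeletal muscle markers, 9 were tested and 4 were lower at 48 h and 3 at 72 h. Their sums over the 9 genes on type A were 3069 to 3151 at 0 h and 785 to 1398 over 48 and 72 h. Over the 3 genes on type C the sums were 12879 to 17025 at 0 h, 8292 to 16089 at 48 h and 12233 to 12364 at 72 h. Of 6 club cell markers, 5 were tested, with 1 higher and 2 lower at 48 h and 2 lower at 72 h. Their sums over the 2 genes on type A were 27655 to 28842 at 0 h, 32092 to 40916 at 48 h and 27513 to 31424 at 72 h. Over the 3 genes on type B they were 5833 to 8272, 2709 to 2781 and 2550 to 2717 at these times. The 1 gene on type C read 1358 to 1778, 3754 to 4169 and 1840 to 2373. No listed marker read 0 on any array. The part of these cells in the ribosomal protein values was not tested.

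In the Nrf2 mutant, a part of the ribosomal protein genes was lower in oxygen than on the mutant 0 h arrays. Of the 38 tested, 17 genes were lower at 24 h and 2 (Rpl41 and Rpl13) higher, at 48 h 13 were lower, and at 72 h 14 were lower, while 19, 25 and 24 did not pass. The lower genes at 24 and 72 h include Rpl27, which entered the test only through the 2 mutant 0 h arrays, the high group of these comparisons, so its call had to lie in this direction. The background was high too, with 24.4%, 17.9% and 21.5% of all probe sets called in these comparisons, and 12.1%, 8.27% and 10.5% called lower. Among the other 255 probe sets of type A over 7000 it was higher still, with 47.1% called at 24 h (72 higher, 48 lower) and 37.3% at 48 h (59 higher, 36 lower). Of the 18 bright genes of type A, 66.7% were called at 24 h (1 higher, 11 lower) and 61.1% at 48 h (0 higher, 11 lower). Rpl13a read 4692 on the single mutant 0 h array and 555 to 1029 on the 6 mutant arrays in oxygen. Its differences were -2.77 ± 0.27 at 24 h, -2.34 ± 0.27 at 48 h and -2.74 ± 0.27 at 72 h (limma, largest adjusted p = 0.00043). Rps19, a small subunit protein whose loss in people causes Diamond-Blackfan anaemia, read 24455 on the mutant 0 h array and 4952 and 4547 at 24 h, a difference of -2.35 ± 0.19. It stood at 13458 and 12300 at 48 h and 13147 and 13103 at 72 h, so the 24 h samples were the lowest of the mutant. Rpl10a, Rps10 and Rps3 had -1.72, -1.52 and -1.46. Rpl37, a large subunit protein on a dim probe set, read 655 and 691 at 0 h and 142 and 45.6 at 72 h, lower by -2.01 ± 0.47. Over all 43 genes without a filter the medians were -0.60, -0.44 and -0.32 at 24, 48 and 72 h, with 32, 35 and 34 genes below 0, and those of all probe sets were -0.05, -0.05 and -0.04. Rpl41 read 4790 on the mutant 0 h array and 16427 and 27120 at 24 h, higher by 2.12 ± 0.44. Rpl13 read 859 and 807 at 0 h and 2390 and 1750 at 24 h, higher by 1.20 ± 0.35, and the groups did not overlap for either gene.

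**Figure D3:**
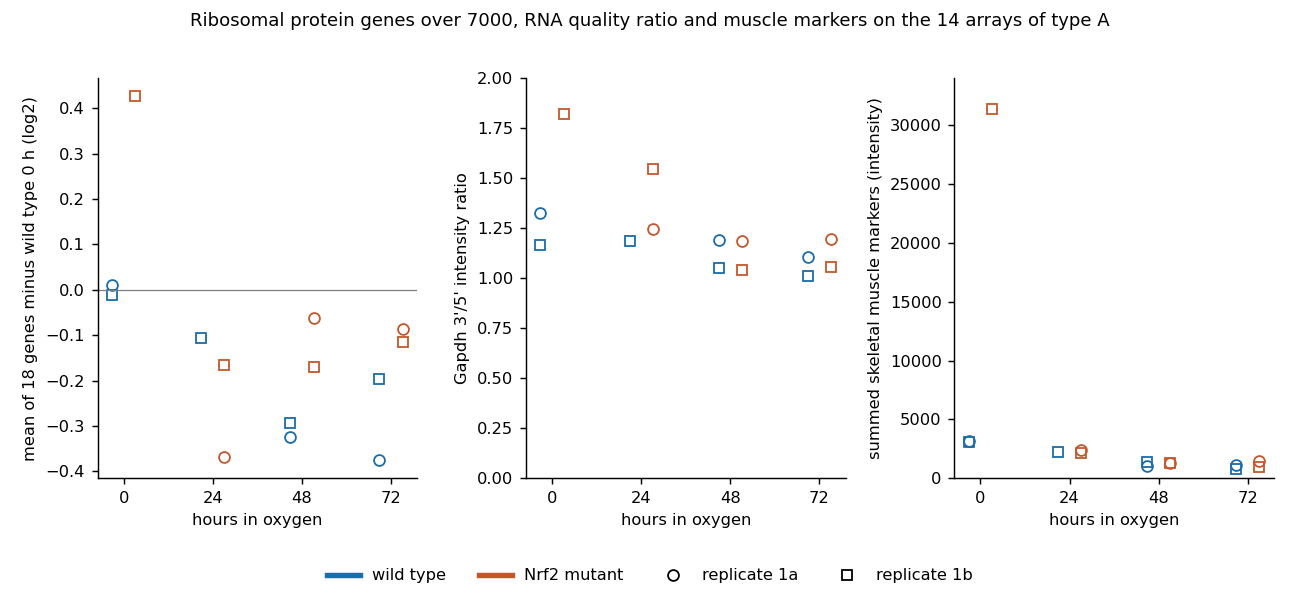
The 14 arrays of type A by hours in oxygen. Left, mean log2 of the 18 bright genes minus the wild type 0 h mean, middle, ratio of the 3′ to the 5′ Gapdh probe set, right, summed intensity of 9 skeletal muscle markers. The mutant 0 h array is the highest in all 3 panels, at 0.43, 1.82 and 31356.

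The mutant 0 h array of type A, the only one of its group, was high for most of these genes. The mean log2 of the 18 bright genes on type A stood 0.43 above the wild type 0 h mean on the mutant 0 h array, between -0.37 and -0.16 on the mutant 24 h arrays, and between -0.17 and -0.06 on the mutant 48 and 72 h arrays. On wild type arrays it was -0.11 at 24 h, -0.33 and -0.29 at 48 h, and -0.38 and -0.20 at 72 h. On type A the mutant 0 h array thus lay above every other array. Over the 3 bright genes of type C, the mutant 0 h arrays stood at 0.18 and 0.60. The lower of them was below mutant 72 h replicate 1b, at 0.20. With the 3 oxygen times pooled, the ranges of the mutant and wild type arrays of type A overlapped, but at each single time they did not. Both mutant arrays lay below the single wild type array at 24 h and above both wild type arrays at 48 h and at 72 h. On type C both mutant arrays were again below wild type at 24 h (-0.49 and -0.42 against -0.31 and -0.05). At 48 h they were above it (-0.05 and 0.04 against -0.29 and -0.20). At 72 h the genotypes overlapped on type C, with 0.06 and 0.20 in the mutant and 0.07 and 0.17 in wild type. These differences in the mean were not tested. The type A array with the highest mean also had the highest Gapdh ratio and the highest muscle and squamous markers of that type, and their part in the result was not tested.

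Set against wild type 0 h instead, the mutant had 8 lower genes and 1 higher gene at 24 h, 0 at 48 h and 3 lower genes at 72 h, where 11%, 6.98% and 13.6% of the 26295 probe sets tested in that fit were called. The 8 at 24 h were Rps19, Rpl13a, Rps7, Rpl7, Rpl10a, Rps18, Rps10 and Rps3, and the higher gene was Rpl41. The 3 at 72 h were Rpl13a, Rpl7 and Rps7. Rpl13a had -1.17 ± 0.22 at 24 h, -0.74 ± 0.22 at 48 h (adjusted p = 0.0705) and -1.14 ± 0.22 at 72 h, and Rpl7 had -0.73 ± 0.15 at 24 h and -0.59 ± 0.15 at 72 h (limma, adjusted p = 0.014 and 0.0282). These comparisons share the mutant oxygen arrays with those above and the 0 h arrays with the wild type comparisons, and they mix genotype with time in oxygen. Without mutant 0 h replicate 1b no type A array of that group remains, and 2 of 13 testable genes were called at 24 h, 1 at 48 h and 2 at 72 h, Rpl3l at each time and Rpl10l at 24 and 72 h. Without mutant 48 h replicate 1a the count at 48 h was 6, and without mutant 72 h replicate 1b the count at 72 h was 7.

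From 48 h to 72 h no ribosomal protein gene was called in wild type or in the mutant, where 0.596% and 2.05% of all probe sets were called. In each genotype 2 of the 38 genes had an unadjusted p under 0.05 in limma, and the median differences of the 43 genes were 0.04 and -0.01.

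Between the genotypes, Rpl13a and Rps19 were higher in the mutant at 0 h, and no gene was called at 24, 48 or 72 h or for the mean of these times. Rpl13a read 4692 on the mutant array against 1376 and 1633 in wild type, a difference of 1.60 ± 0.27 (limma, adjusted p = 0.0146). Rps19 read 24455 against 11609 and 10430, a difference of 1.15 ± 0.19 (adjusted p = 0.0153). Of all probe sets 2.75% were called at 0 h. Without wild type 0 h replicate 1a neither gene passed, and without replicate 1b Rpl13a passed and Rps19 did not. Without mutant 0 h replicate 1b neither gene can be tested, since no type A array of that group remains, and 0 of 13 genes passed. Over all 43 genes the median was 0.38 against -0.02 over all probe sets, and 30 of the 43 were above 0. With quantile normalization the median of the tested genes at 0 h dropped from 0.38 to 0.13.

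At 24, 48 and 72 h and for their mean, 0.157%, 0.376%, 0.82% and 1.25% of all probe sets were called between genotypes. In limma 3, 3, 1 and 0 of the 38 genes had an unadjusted p under 0.05. The medians over the 43 genes were -0.07, 0.08, 0.08 and 0.05. Rps19 read 4952 and 4547 on the mutant 24 h arrays against 10266 in the wild type 24 h sample, and no other array of type A read under 9267. Its genotype difference at 24 h was -1.10 ± 0.19 (adjusted p = 0.0714), which did not pass, and with the stricter filter on dim probe sets it did (adjusted p = 0.037). By 48 h Rps19 in the mutant read 13458 and 12300, both above the wild type 48 h samples at 10537 and 9267.

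The response itself differed between genotypes for 1 gene. For Rpl13a the change from 0 h to 72 h was -1.87 ± 0.35 lower in the mutant than in wild type (limma, adjusted p = 0.0341), where 1.36% of all probe sets were called. At 0 h the gene read 4692 on the single mutant array and 1376 and 1633 in wild type, and at 72 h it read 574 and 706 in the mutant and 704 and 873 in wild type. It did not pass when wild type 0 h, wild type 72 h or mutant 72 h replicate 1a or 1b was left out, or with a floor in place of the added value. For the change from 48 h to 72 h none of the 38 genes was called (2 at an unadjusted p under 0.05 in limma), with 0.0335% of all probe sets called.

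The symbol rule also took several paralogues of ribosomal proteins. Rpl3l read 2263 and 3400 on the mutant 0 h arrays of type C and at most 1053 on any other. It was lower in the mutant in oxygen by -2.30 ± 0.43 at 24 h, -3.11 ± 0.43 at 48 h and -2.60 ± 0.43 at 72 h (limma, largest adjusted p = 0.00252), and its difference between genotypes at 0 h was 1.59 ± 0.43 (adjusted p = 0.0722). Of 9 tested skeletal muscle markers, 6 were higher in the mutant at 0 h, where 2.75% of all probe sets were called. The part of these markers in the value of Rpl3l was not tested. Rpl7l1, a paralogue of Rpl7, was lower at 24 h in the mutant by -0.89 ± 0.27 against its own 0 h array and was not called in wild type, where its 48 h difference of -0.26 stood beside -0.77 for Rpl7. Rps27l, a paralogue of Rps27 known as a p53 target, read 367 to 913 over all arrays and was called in none of the comparisons. Rps4l and Rpl10l were not called either in the fit with all arrays, and Rpl39l was not tested.

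Bright members did not all rise and fall together from array to array. Over the 14 arrays of type A the 153 pairs of the 18 bright genes had a median Pearson correlation of log2 values of 0.59, from -0.70 to 0.95, and 0.35 without the mutant 0 h array. These arrays share their group structure, so the values are a description. Rpl7 was most like Rps7 (r = 0.95), Rpl10a (0.95), Rpl13a (0.94), Rps3 (0.94) and Rps10 (0.91). Among all 5031 genes compared on type A, the genes outside the family most like it were 1810009A15Rik (0.98), Ndufb11 (0.97), Pon2 (0.97), Lsm7 (0.97) and Ndufb8 (0.97), and Rps7 ranked 22nd. Without the mutant 0 h array the correlation with Rps7 was 0.92.

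Genes of the wider translation machinery did not share 1 direction. Of 58 tested genes for nucleolar ribosome assembly and RNA polymerase I, 14 were higher and 0 lower at 72 h in wild type, with a median of 0.38, where 7.83% of all probe sets were called and their median was -0.06. Heatr1, needed for ribosomal RNA transcription and processing, was higher by 2.41 ± 0.20, and Rrs1, Gnl3 and Utp4, which assemble or process the subunits, by 1.26, 1.17 and 1.01 (limma, largest adjusted p = 0.0043). In the mutant at 72 h 17 were higher and 3 lower against its own 0 h arrays, with a median of 0.44, where 21.5% of all were called and their median was -0.03. Of 24 tested initiation factors, 6 were higher and 0 lower at 72 h in wild type, with a median of 0.34, among them Eif3c (1.25 ± 0.14) and Eif2b3 (1.08 ± 0.21). The ribosomal protein genes thus had a median below 0 at 72 h in wild type where both of these lists had a median above 0, as a description of the lists.

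Among 17 tested elongation factors and other genes whose messages carry the same kind of tract, 3 were lower and 0 higher at 48 h in wild type, where 6.64% of all probe sets were called, 3.39% lower, with a median of -0.03. They were Naca (-1.03 ± 0.19) and Btf3 (-0.81 ± 0.17), which form a complex on the emerging peptide, and the initiation factor subunit Eif3k (-0.58 ± 0.15). Mitochondrial ribosomal proteins, which serve the separate ribosome of mitochondria, had 5 lower and 1 higher of 70 tested at 48 h in wild type, with a median of -0.43. This count is near the background, and the median lay below that of all probe sets. In the mutant at 24 h 51 of the 70 were lower against the mutant 0 h arrays, where 24.4% of all were called and 12.1% were lower. Of 25 tested genes that control ribosomal protein synthesis, 4 were higher and 1 lower at 48 h in wild type, with a median of 0.35. Sesn2 (2.86 ± 0.27) and Ddit4 (1.21 ± 0.19), inhibitors of mTOR signalling, Cdkn1a (2.84 ± 0.20), a p53 target that arrests the cell cycle, and Mxd1 (1.14 ± 0.18), an antagonist of Myc, were higher. At 72 h Myc, an activator of ribosome genes, was also higher (1.77 ± 0.21, limma, adjusted p = 0.000743).

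**Figure D4:**
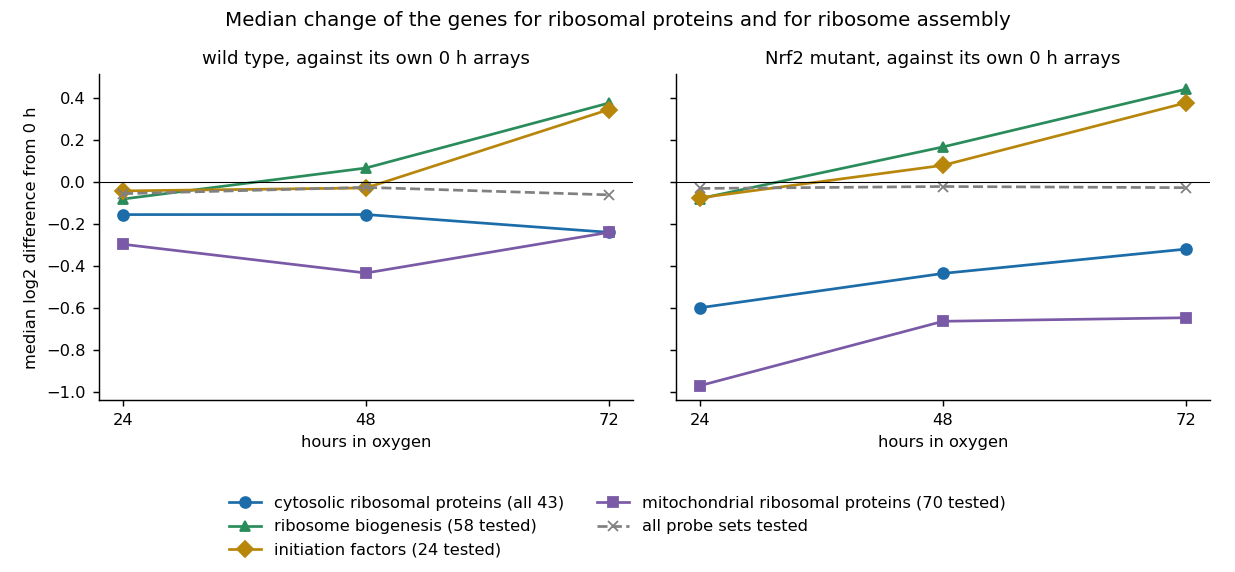
Median log2 difference from 0 h against hours in oxygen for the 43 ribosomal protein genes without a filter and for the tested genes of 3 other lists, with all tested probe sets as a dashed line. Wild type is on the left and the Nrf2 mutant, against its own 0 h arrays, on the right. At 72 h in wild type ribosome biogenesis stands at 0.38 and initiation factors at 0.34, and the ribosomal protein genes at -0.24.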

How the data were processed

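Gene expression was measured on 46 arrays of 3 types. The deposited values are linear intensities, 1 per probe set and array. How the authors made them is not stated in the labels. The mean intensity after trimming 2% at each end was about 800.2 to 800.5 on every array, and this scaling was kept. The log2 scale used here adds to each intensity the array type's 25th percentile (78.1 on A, 126 on B, 106 on C), so a fold understates the change of dim genes. Tested were probe sets over the type's 40th percentile on 2 or more arrays, with limma 3.58.1 (R 4.3.3), 1 fit per array type on all its arrays and 1 mean per genotype and time, with no replicate block. P-values are two-sided, with Benjamini-Hochberg adjustment across the 3 array types together (26833 probe sets), and called under 0.05. The scripts were tested on simulated data. The number of arrays, 1 or 2 per group and type, limits the precision. Symbols came from the platform annotation, which gave 29131 probe sets 1 symbol, 724 several and 6846 none.

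The members and lists were chosen with earlier results of these data known. Members were named when among the 6 largest called rises or falls of a comparison, by role (stalk proteins, Mdm2 binding, Rps6, Rps19, Rps18, Rpl13a), as paralogues, by the extremes of intensity and spread, or by likeness to Rpl7. Of other lists, up to 4 called genes with the smallest p were named. Rpl7a, Rpl8, Rps28 and Rpl19, and Rps10, Rps3 and Rpl41 in wild type, were named after their values were seen. The alternatives were a floor at the added value with nothing added, quantile normalization, the filter left out or raised to the 60th percentile, a replicate block, the mean over a gene's probe sets, and leaving out each replicate. A fit without the mutant 0 h arrays and the mutant against wild type 0 h were added after seeing the data.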

Additional observations from a re-analysis of the deposited data

Results flagged for a closer look

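Rpl13a differed between the genotypes in its change from 0 h to 72 h of oxygen, by -1.87 on the log2 scale (mutant change minus wild type change, tested as the interaction term of the limma fit, adjusted p = 0.0341). The value uses the single mutant 0 h array of type A, which stood apart from the other arrays, and the part of that array in it was not tested.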

How the results depend on the processing

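Not every called value kept its sign under an alternative. Rps19 was called lower in the mutant at 48 h and 72 h against its own 0 h arrays. Against wild type 0 h its differences were 0.22 at 48 h and 0.25 at 72 h, above 0 and not called. The cases counted next do not cover every called gene, and no sign change was found among them. Over the settings other than leaving out 1 replicate, called values of named genes stayed past the threshold in 180 cases and missed it in 23. These settings include the fit without the mutant 0 h arrays and the mutant against wild type 0 h. With 1 replicate left out they stayed past it in 60 cases and missed it in 45. In wild type at 48 h, against 5 genes called, the floor and the lack of a filter each gave 2, the stricter filter 8, and leaving out 1 replicate 0 in each case. In wild type at 72 h, against 2, quantile normalization gave 1 and leaving out 1 replicate 0. In the mutant against its own 0 h arrays, leaving out 1 replicate gave 2 to 18 at 24 h (main 19), 1 to 14 at 48 h (main 13) and 2 to 12 at 72 h (main 14), quantile normalization gave 8 at 48 h, and wild type 0 h as the reference gave 9, 0 and 3. Between genotypes at 0 h (main 2), quantile normalization gave 1 and leaving out 1 replicate 0 to 2. At 24 h (main 0) the stricter filter gave 1. For the difference in response from 0 h to 72 h (main 1), the floor gave 0 and leaving out 1 replicate 0 to 1. The median of the tested genes moved from -0.67 to -0.33 at 24 h, from -0.46 to -0.17 at 48 h and from -0.32 to -0.10 at 72 h in the mutant with wild type 0 h as the reference. In wild type at 72 h it moved from -0.25 to -0.14 with quantile normalization. Fewer or more genes tested change the adjustment in the fits with another filter, and for the other settings the cause was not tested.

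With a replicate block, 9 genes were called at 48 h in wild type against 5, and no other count moved by over 1.5 times. The correlations of the deviations of same-lettered samples averaged 0.16 on type A, where 7 of 15 pairs were over 0.1, 0.11 on B (18 of 28 pairs) and 0.04 on C (2 of 28 pairs). On no array type were all pairs over 0.1, and the letters were not taken to pair samples.

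Signal over background limits the 22 genes of mean intensity under 7000 most, 5 of which were not tested.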
